A study of Mus musculus with 17 samples.

Results

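Ccl2, Ccl7, Ccl12 and Ccl8 encode the monocyte chemoattractant proteins of the mouse, CC chemokines whose genes lie together on chromosome 11. Every probe set that the platform names with 1 symbol, and that symbol 1 of these 4, was taken, which gave 1 probe set per gene (102736_at for Ccl2, 94761_at for Ccl7, 93717_at for Ccl12 and 92459_at for Ccl8) out of 12488 on the array, or 4 of 8252 genes with such a symbol. The genes were chosen by name with their measured intensities in KO macrophages known. Every comparison that holds KO arrays is therefore a description of them, and no p-value of theirs is printed there. Which of them passed a threshold in such a comparison is also description, and nothing is read from it. The 17 arrays were made from total RNA of bone marrow-derived macrophages, grown from marrow of mice whose blood system came from a transplant of fetal liver cells, SOCS3-/- (KO) or SOCS3+/+ (WT). Each genotype was read without IL-6 and with 10 ng/ml of it for 100 or 400 min, with 3 arrays in each KO group, 3 in each stimulated WT group and 2 in the unstimulated WT group. Donor fetal liver and an irradiated host are common to all groups, and the labels do not say how many donors or hosts there were, or whether replicates are separate cultures, so that the p-values measure only the spread between these arrays, which may be technical.

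Monocyte chemoattractants are small secreted proteins that draw monocytes and other leukocytes out of the blood by acting on G protein-coupled receptors. Ccl2 and Ccl12 are ligands of Ccr2, the receptor that inflammatory monocytes need to leave the marrow, and Ccl7 acts on Ccr2, Ccr1 and Ccr3. Ccl8 has been described in the mouse as a ligand of Ccr8. Macrophages make these chemokines after inflammatory stimuli, and IL-6 signals through gp130, JAK kinases and STAT3 under the feedback inhibitor SOCS3.

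The question is how far the loss of SOCS3 changes the IL-6 response of these genes. In RefSeq's gene table for the mouse assembly GRCm38.p6 the order along the chromosome is Ccl2, Ccl7, Ccl11, the noncoding gene Gm38913, Ccl12, Ccl8 and Ccl1. RefSeq's promoter table for the same assembly held 2 of the 4 genes, Ccl12 and Ccl8, which are adjacent genes with unlike time courses in KO cells. The 250 bases before each start are shown for that reason, at chr11:82101595-82101844 for Ccl12 and chr11:82114935-82115184 for Ccl8, both on the + strand, with the letters TATAAA in capitals.
Ccl12: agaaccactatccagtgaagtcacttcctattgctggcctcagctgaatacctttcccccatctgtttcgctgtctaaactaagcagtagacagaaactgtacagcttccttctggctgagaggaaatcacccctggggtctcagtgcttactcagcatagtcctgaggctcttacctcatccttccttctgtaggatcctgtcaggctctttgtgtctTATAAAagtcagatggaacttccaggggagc
Ccl8: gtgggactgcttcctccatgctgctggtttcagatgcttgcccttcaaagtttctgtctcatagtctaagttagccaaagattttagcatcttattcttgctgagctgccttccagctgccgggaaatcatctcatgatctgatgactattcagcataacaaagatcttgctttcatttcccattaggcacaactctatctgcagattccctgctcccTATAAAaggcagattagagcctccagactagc
The 2 windows had 150 of 250 bases identical in a global alignment with gaps, or 60.0%. No other pair of promoters was aligned, so the value does not tell whether these 2 are more alike than others. TATAAA lay at positions -31 to -26 in Ccl12 and -32 to -27 in Ccl8, and 13.6% of the 32851 promoters of the table hold it on either strand within 250 bases before and 50 after the start. It was added to the search after the sequences were seen. The other 6 motifs, read on both strands over the same 300 bases, were absent from both genes: GGG and CC with 5 bases between them for kappaB (in 50.8% of all promoters), TTCNNNGAA for STAT (8.30%), GAAA repeated after a gap of 2 bases for IRF (3.44%), TGANTCA for AP-1 (7.81%), TTNNGNAA for C/EBP (40.7%) and GGGCGG for Sp1 (35.7%).

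The arrays differed in ways beyond their labels that bear on the results below. Socs3 itself, on probe set 92232_at, was at 20.6, 23.6 and 16.5 in unstimulated KO cells, 66.8, 86.2 and 179 at 100 min and 48.6, 78.5 and 903 at 400 min, and in WT cells at 115 and 54.9 unstimulated, 2552, 1809 and 432 at 100 min and 2400.5, 2036 and 2117 at 400 min. The array labelled KO 400 min replicate 3 thus went against its label, also on probe set 162206_f_at (793, against 1105 to 1326 on the WT arrays at that time), and values without it are given below. The deleted stretch of Socs3 is not given by the labels, and a probe set outside it checks nothing. Eif2s3y, of the Y chromosome, was at 7.67 to 112 on the 9 KO arrays and at 245 to 790 on the 8 WT arrays, and Xist, the RNA made from the silenced X, at 228 to 993 on KO and at 11.1 to 188 on WT arrays. On the array labelled KO 400 min replicate 3 Eif2s3y was at 81.9 and Xist at 408, both within the range of the other KO arrays. The genotype and these sex-linked levels cannot be told apart in any comparison of KO with WT. Of the 5 arrays of replicate 3, 4 stood apart on the first principal component (12.7% of the variance), at 26.6 to 58.1 against at most 2.27 for the 12 arrays of replicates 1 and 2. The remaining one, labelled KO 400 min replicate 3, was at 0.888, above replicates 1 and 2 of its group at -30.3 and -29.9. Unstimulated WT cells have no replicate 3. All 10 macrophage markers were read, with a summed intensity of 84005 to 115760 per array. The summed markers of other cells lay between 1141 and 2235 for neutrophils and their precursors (11 genes), 1576 and 2292 for fibroblasts and stroma (9), 455 and 1183 for endothelium (6), 797 and 1654 for mast cells and basophils (7), 329 and 906 for T and NK cells (6 of 8 read) and 581 and 1098 for B cells (5 of 6 read). Under the 40th percentile on all arrays were Ctsg and Ngp, Acta2 and Postn, Cdh5 and Tek, Cpa3, and Cd3e and Cd8a. Of all these markers Fcgr1, of macrophages, was called, once, in KO cells at 400 min against unstimulated (1.96, adjusted p = 0.0168 in limma). Some sums did not overlap between groups compared below: in KO cells the macrophage sum was 90065 to 91150 at 400 min against 92726 to 105850 unstimulated, and that of mast cells 1399 to 1571 against 961 to 1269. At 100 min the KO sum was 1743 to 1827 for fibroblasts and 922 to 1003 for B cells, against 1878 to 2292 and 643 to 888 in unstimulated KO cells, and the fibroblast sum was 2038 to 2134 in WT cells at 100 min. At 400 min the B cell sum was 692 to 912 in KO and 993 to 1065 in WT cells, and those of endothelium (749.8 to 1013 in KO, 458 to 746.9 in WT) and mast cells (1399 to 1571 in KO, 1215 to 1388 in WT) also lay apart. The unstimulated neutrophil sum was 1204 to 1592 in KO and 1806 to 2211 in WT cells. In WT cells the macrophage sum was 89560 to 99351 at 400 min against 102290 to 115760 unstimulated, that of fibroblasts 1576 to 1916 against 1924 to 2285, and that of endothelium 458 to 746.9 against 781 to 827. Between 400 and 100 min, sums lay apart for macrophages (90065 to 91150 against 94071 to 98173) and B cells (692 to 912 against 922 to 1003) in KO cells and for fibroblasts (1576 to 1916 against 2038 to 2134) in WT cells. The part of these differences in the results was not tested.

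Ccl2 was the member read above the 40th percentile of the array on all 17 arrays. In KO cells its normalized intensity, for replicates 1, 2 and 3, was 445, 352 and 368 unstimulated, 14177, 12793 and 6002 at 100 min, and 14808, 16442 and 3909.7 at 400 min. In WT cells it was 236 and 153 unstimulated, 1998, 2079 and 146 at 100 min, and 595, 681 and 163.5 at 400 min. Every stimulated KO array was above every other array, and replicate 3 was the lowest array of each stimulated group. On the log2 scale the difference from unstimulated KO cells was 4.74 (SE 0.90) at 100 min and 4.67 (SE 0.90) at 400 min, and 400 min minus 100 min was -0.06 (SE 0.90), with KO means of 10991 ± 4376 at 100 min and 11720 ± 6813 at 400 min (SD, n = 3 each). In WT cells the means were 1407 ± 1093 at 100 min and 480 ± 277 at 400 min (SD, n = 3 each), against 195 ± 58.5 unstimulated (SD, n = 2), and in both stimulated groups the replicate 3 array lay within the range of the unstimulated ones or below it. Before any IL-6, Ccl2 averaged 388 ± 49.7 in KO (SD, n = 3) and 195 ± 58.5 in WT cells (SD, n = 2), a log2 difference of 1.02 (SE 1.01); these groups did not overlap, as was the case, in the higher direction, for 11.8% of the probe sets tested.

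Ccl7 spanned the widest fold range of the 4 genes. In KO cells it was at 100.1, 116 and 9.13 unstimulated, 9402, 7265 and 1604 at 100 min and 14575, 13737 and 2929.6 at 400 min. In WT cells it was at 30.2 and 32.9 unstimulated, 394, 568 and 86.8 at 100 min and 143, 262 and 7.24 at 400 min. The 9.13 and 7.24, both on replicate 3 arrays, are below the floor of 22.0 that was set before taking logs. The stimulated KO arrays were again above all others without overlap, while the WT arrays at 400 min spread on both sides of the unstimulated ones. The log2 difference from unstimulated KO cells was 6.24 (SE 1.05) at 100 min and 7.04 (SE 1.05) at 400 min, the first in rank among the 9871 probe sets tested in both comparisons. Between 400 and 100 min in KO cells Ccl7 differed by 0.81 (SE 1.05), with positive values within each of the replicate numbers (0.63, 0.92 and 0.87). No unstimulated array was above its 40th percentile for Ccl7, so these fold changes start from the dim end of the array and understate the difference where values sat at the floor.

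Ccl12, a mouse chemokine with no human gene of that name, had the narrowest replicate spread in stimulated KO cells at 400 min. Its KO values were 25.7, 16.9 and 48.1 unstimulated, 1164, 1096 and 421 at 100 min and 1238, 1109 and 925 at 400 min. Its WT values were 37.1 and 17.4 unstimulated, 243, 290.4 and 51.6 at 100 min and 183, 41.8 and 43.1 at 400 min. The KO arrays of each stimulated group lay above every WT array, and the unstimulated arrays of the genotypes overlapped. The log2 difference from unstimulated KO cells was 4.76 (SE 0.69) at 100 min and 5.17 (SE 0.69) at 400 min. As with Ccl7, no unstimulated array exceeded its 40th percentile, and 2 of the 5 lay under the floor.

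Ccl8 followed another course. Its KO values were 32.9, 173 and 278 unstimulated, 416, 371 and 306 at 100 min and 2406, 1596 and 3936 at 400 min. Its WT values were 40.2 and 183 unstimulated, 288, 303 and 65.3 at 100 min and 102, 259.7 and 204 at 400 min. Only the KO arrays at 400 min stood well above the rest, and at that time replicate 3 was the highest array and not the lowest. The log2 difference from unstimulated KO cells was 1.63 (SE 0.81) at 100 min and 4.41 (SE 0.81) at 400 min. Between the times it was 2.77 (SE 0.81), rank 3 among all probe sets tested, with 2.53, 2.10 and 3.69 within replicates 1, 2 and 3, whereas Ccl2, Ccl7 and Ccl12 were at -0.06, 0.81 and 0.41. The KO arrays of Ccl8 did not overlap between the times, as was so for 7.46% of probe sets in the higher direction. No probe set passed limma's adjusted threshold between 400 and 100 min in KO cells, although 891 (9.03%) had an unadjusted p under 0.05, Ccl8 the only one of the 4 among them.

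**Figure D1:**
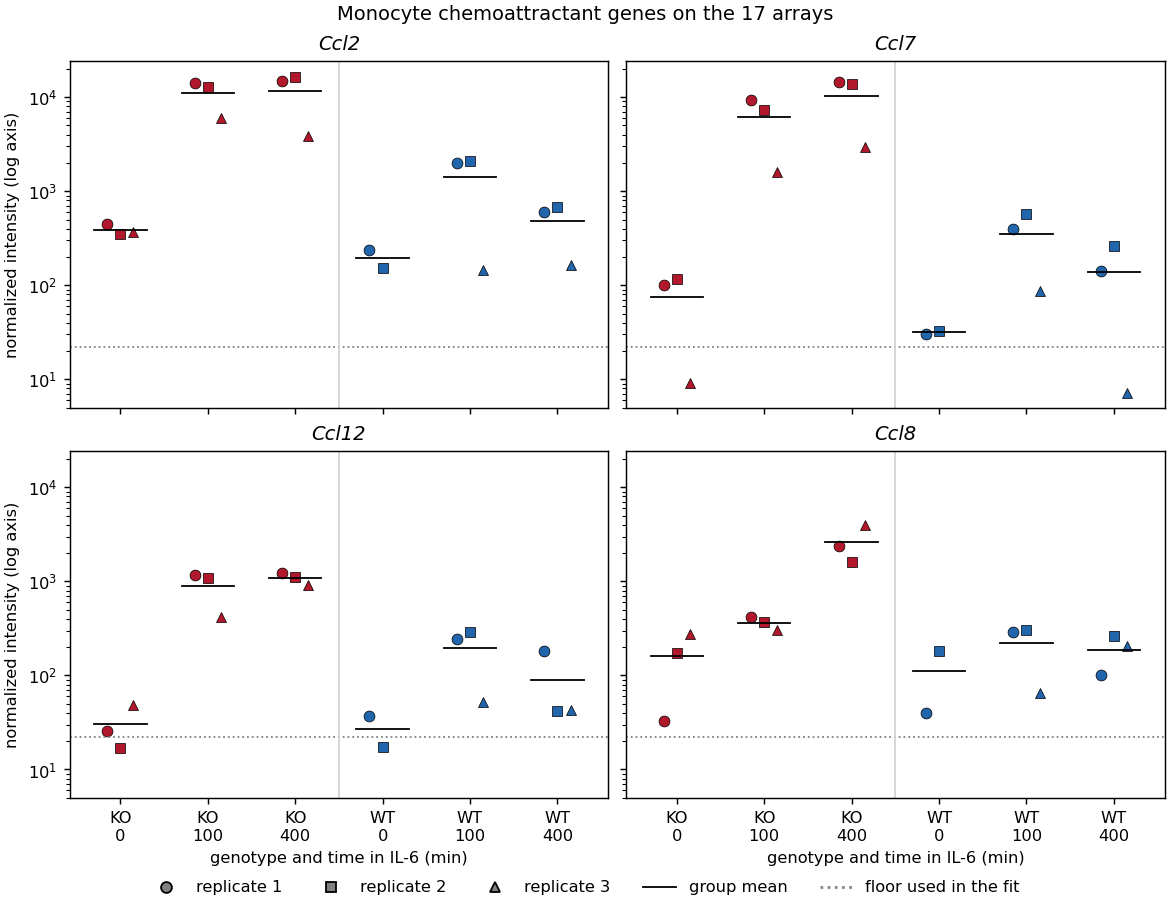
Normalized intensity (log axis) of Ccl2, Ccl7, Ccl12 and Ccl8 on each of the 17 arrays, by genotype and minutes in IL-6; points are arrays, with their shape giving the replicate number, horizontal lines are group means and the dotted line is the floor of 22.0. Stimulated KO arrays lie above all others for Ccl2, Ccl7 and Ccl12, and for Ccl8 the KO arrays at 400 min (1596 to 3936) do so.

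Set side by side, at 100 min of IL-6 in KO cells 3 of the 4 genes passed the threshold of an adjusted p under 0.05 in limma's moderated test (Ccl2, Ccl7 and Ccl12), where 0.537% of the probe sets tested were called higher (0.577% in either direction). At 400 min all 4 passed, where 1.20% were called higher (1.82% in either direction). The arrays of all 4 genes did not overlap with the unstimulated ones at either time, against 5.69% of probe sets higher without overlap at 100 min and 8.56% at 400 min. At an unadjusted p under 0.05 were 3 of them at 100 min and 4 at 400 min, with 6.17% and 12.2% of all probe sets. These are the comparisons that chose the genes, and nothing is read from the counts. At 100 min the count was 1, Ccl12, without KO 100 min replicate 1, KO 100 min replicate 2 or KO unstimulated replicate 3, and 2, Ccl7 and Ccl12, without KO unstimulated replicate 1 or 2. At 400 min it was 2, Ccl7 and Ccl12, without KO 400 min replicate 1, and 3, without Ccl2, when KO 400 min replicate 2 or any of the 3 unstimulated KO arrays was left out. Ccl2 thus lost its call in 5 of 17 such fits at each time. The count at 400 min was 4 without the array labelled KO 400 min replicate 3, where the log2 differences were 5.35 for Ccl2, 7.82 for Ccl7, 5.29 for Ccl12 and 4.08 for Ccl8. With the 2 KO groups alone in the fit, 1 gene, Ccl2, was called at 100 min.

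WT cells played no part in choosing the genes, as far as is known. In them the differences of all 4 genes from unstimulated cells were positive at both times, and none passed the test. Without unstimulated WT replicate 1, those of Ccl8 were -0.040 at 100 min and -0.064 at 400 min. At 100 min the log2 difference from unstimulated WT cells was 2.15 for Ccl2 (SE 1.01, adjusted p = 0.814), 3.09 for Ccl7 (SE 1.17, adjusted p = 0.760), 2.43 for Ccl12 (SE 0.77, adjusted p = 0.615) and 1.06 for Ccl8 (SE 0.90, adjusted p = 0.920), in limma's test over all probe sets. The stimulated arrays of Ccl7 and Ccl12 were above the unstimulated ones without overlap, while 10.7% of all probe sets were so, and the 1 probe set called in this comparison was 0.0101% of those tested. Unadjusted, the p of Ccl12 was 0.00726 and that of Ccl7 0.0197, and 6.12% of all probe sets were under 0.05. For these 2 genes no unstimulated array was above its 40th percentile, so they entered the test only through stimulated arrays. Nothing is therefore read from their p-values or lack of overlap against unstimulated WT cells, at 100 or at 400 min. The 95% intervals ran from -0.02 to 4.32 for Ccl2, 0.57 to 5.61 for Ccl7, 0.77 to 4.09 for Ccl12 and -0.88 to 2.99 for Ccl8, so that the missed threshold does not show that WT cells left these genes alone. With replicates 1 and 2 only, Ccl2 and Ccl7 passed at 100 min: Ccl2 rose by 3.43 (SE 0.25, adjusted p = 0.00257) and Ccl7 by 3.88 (SE 0.33, adjusted p = 0.00341), while Ccl12 was at 3.19 (adjusted p = 0.126) and Ccl8 at 1.77 (adjusted p = 0.766). The share of all probe sets called with replicates 1 and 2 only is not given, here or below. Nothing is therefore read from the calls of such fits. WT 100 min replicate 3 read 7.15% of the mean of replicates 1 and 2 for Ccl2, 18.0% for Ccl7, 19.3% for Ccl12 and 22.1% for Ccl8, and without that array alone 0 of the 4 were called.

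At 400 min the WT differences from unstimulated cells were smaller: 1.09 for Ccl2 (SE 1.01, adjusted p = 0.959), 1.57 for Ccl7 (SE 1.17, adjusted p = 0.930), 1.27 for Ccl12 (SE 0.77, adjusted p = 0.873) and 1.03 for Ccl8 (SE 0.90, adjusted p = 0.946). Ccl12 was the 1 gene of the 4 whose arrays did not overlap, as did not 10.8% of all probe sets, and 0.0101% were called (6.26% at an unadjusted p under 0.05, none of the 4 among them). Within replicates 1 and 2 Ccl7 passed, at 2.58 (SE 0.33, adjusted p = 0.0361), and Ccl2 did not, at 1.75 (adjusted p = 0.0644). Set against 100 min, the WT values at 400 min were -1.06 for Ccl2, -1.52 for Ccl7, -1.16 for Ccl12 and -0.03 for Ccl8, with SEs of 0.69 to 1.05 and adjusted p-values of 0.848 to 1.00, where 0 of 9871 probe sets were called and 6.30% had an unadjusted p under 0.05, none of the 4 among them. None of the 4 was higher without overlap either, against 5.94%. Of the 12 values within replicate numbers, 2 were positive and 10 negative, from -2.80 to 1.64. In KO cells the same 12 values ran from -0.62 to 3.69, and 11 were positive. The 4 genes share their arrays, so these values are not independent and their counts carry no test. In WT cells the log2 means of Ccl2, Ccl7 and Ccl12 were lower at 400 than at 100 min, and in KO cells those of Ccl7 and Ccl12 were higher and that of Ccl2 was lower by 0.06, but the difference between the times passed in neither genotype.

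**Figure D2:**
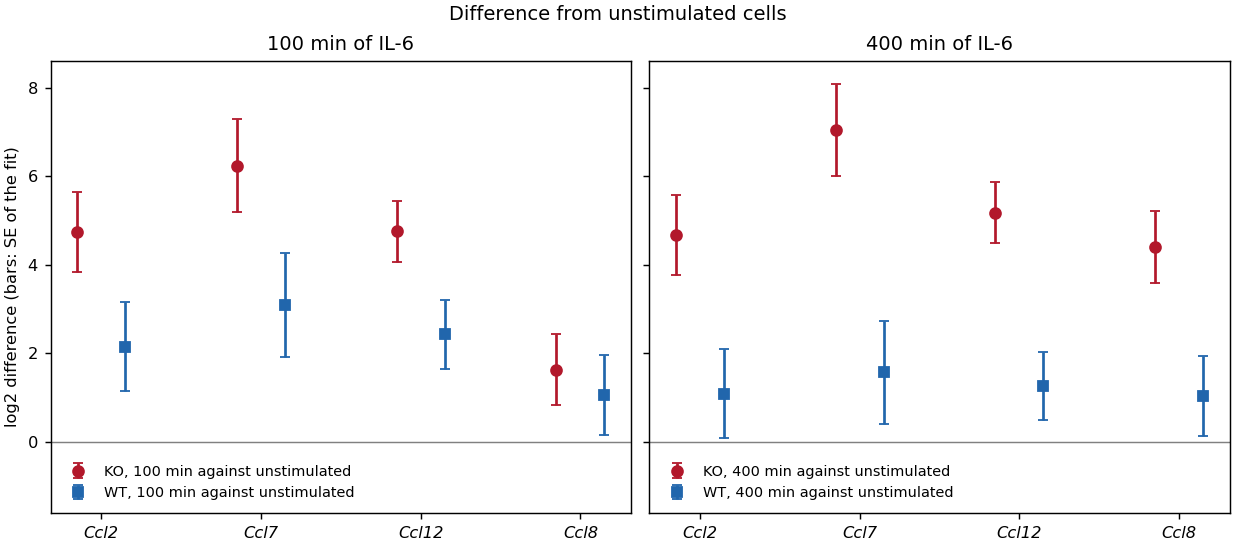
Log2 difference from unstimulated cells of the same genotype after 100 and 400 min of IL-6, for the 4 genes; circles are KO, squares are WT and bars are 1 SE of the fit over 17 arrays. KO values range from 1.63 to 6.24 at 100 min and 4.41 to 7.04 at 400 min, WT values from 1.06 to 3.09 and 1.03 to 1.57.

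The genotypes were set against each other at each time. Unstimulated, KO minus WT was 1.02 for Ccl2, 1.01 for Ccl7, 0.07 for Ccl12 and 0.44 for Ccl8, with SEs of 0.77 to 1.17, and 0 of the 4 and 0% of all probe sets were called (5.99% at an unadjusted p under 0.05, none of the 4 among them). Within replicate numbers 1 and 2 Ccl2 was at 0.92 and 1.20 and Ccl7 at 1.73 and 1.81, whereas Ccl12 was at -0.53 and 0.00 and Ccl8 at -0.29 and -0.08. The signs of Ccl12 and Ccl8 turned with the normalization or with single arrays, so that no direction is given for them before stimulation.

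At 100 min KO minus WT was 3.60 for Ccl2 (SE 0.90), 4.15 for Ccl7 (SE 1.05), 2.40 for Ccl12 (SE 0.69) and 1.02 for Ccl8 (SE 0.81), or 12.2-fold, 17.8-fold, 5.28-fold and 2.02-fold. Ccl7 and Ccl2 were first and second among all probe sets in size, and none of the 4 was called, where 0.0405% of probe sets were (0.0304% higher). At an unadjusted p under 0.05 were Ccl2, Ccl7 and Ccl12 and 4.89% of probe sets. The arrays of all 4 genes were higher in KO than in WT without overlap, against 4.19% of probe sets. The values within replicate numbers ran from 0.29 for Ccl8 to 5.36 for Ccl2, all positive, as arrays without overlap require. The 5.36 was within replicate 3, where the WT array was at 146, and the values within replicates 1 and 2 were 2.83 and 2.62. With replicates 1 and 2 only, Ccl2 (2.72) and Ccl7 (4.13) were called. Nothing is read from these calls, since the share of all probe sets called in that fit is not given.

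At 400 min the KO cells stood further from WT cells. KO minus WT was 4.604 for Ccl2 (SE 0.90), 6.48 for Ccl7 (SE 1.05), 3.97 for Ccl12 (SE 0.69) and 3.82 for Ccl8 (SE 0.81), or 24.3-fold, 89.3-fold, 15.7-fold and 14.1-fold. In size they had ranks 3, 1, 6 and 7 of 9871 probe sets. Ccl2, Ccl7 and Ccl12 were called, where 0.314% of probe sets were called higher and 0.0507% lower (0.365% in either direction). All 4 did not overlap, against 7.21% of probe sets, and all 4 had an unadjusted p under 0.05, against 8.71%. The call of Ccl2 was lost in 14 of the 17 fits that left out 1 array, that of Ccl12 in 4 and that of Ccl7 in 3. Ccl2 differed by 4.64, 4.59 and 4.58 within replicates 1, 2 and 3, the narrowest range among the 4. Its replicate 3 arrays were each at about the same low share of the others (25.02% in KO and 25.6% in WT), which left their difference near those of replicates 1 and 2. Arrays numbered 1 and 2 were not taken as pairs, so such ranges measure no precision. Ccl7 differed by 6.68, 5.71 and 7.06, Ccl12 by 2.76, 4.73 and 4.43 and Ccl8 by 4.56, 2.62 and 4.27. The count of called genes was 0 without KO 400 min replicate 1, KO 400 min replicate 2 or WT 400 min replicate 3 and in a fit of the KO and WT groups at 400 min alone, 1 (Ccl7) without WT 400 min replicate 2, and 3 without the array labelled KO 400 min replicate 3, where Ccl2 was at 5.28, Ccl7 at 7.25, Ccl12 at 4.09 and Ccl8 at 3.50.

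**Figure D3:**
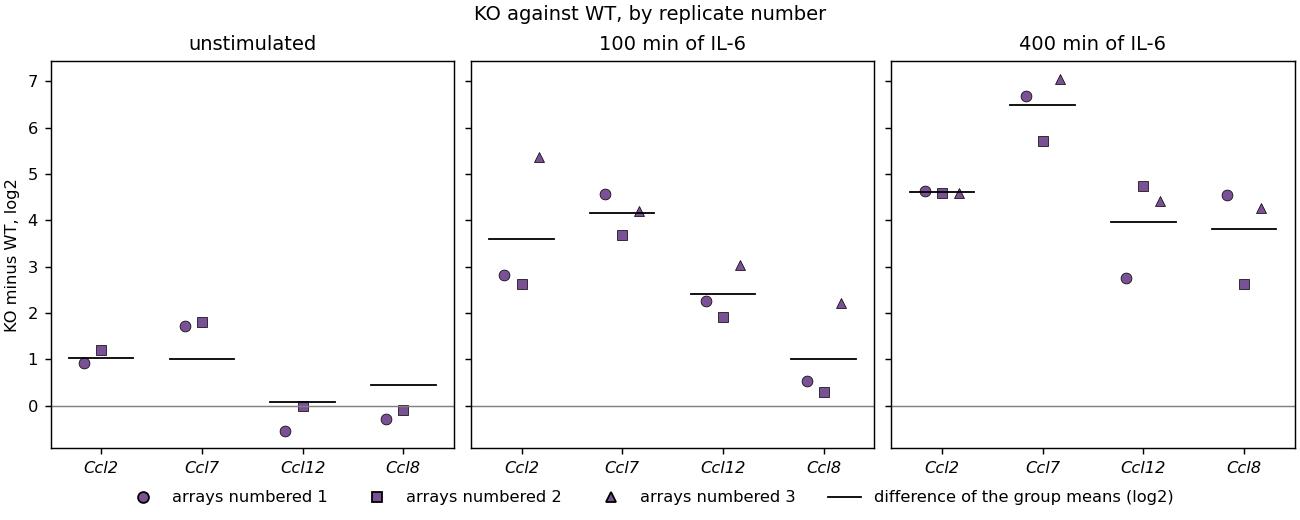
KO minus WT on the log2 scale for the 4 genes, in unstimulated cells and at 100 and 400 min; each point sets arrays of one replicate number against each other and the line is the difference of the group means. All 12 points lie above 0 at 100 min and at 400 min, as arrays without overlap require. In unstimulated cells 4 of 8 do so.

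The difference of the responses between genotypes had wider errors. The KO response minus the WT response at 100 min was 2.58 for Ccl2 (SE 1.35), 3.15 for Ccl7 (SE 1.57), 2.33 for Ccl12 (SE 1.03) and 0.57 for Ccl8 (SE 1.21). At 400 min it was 3.58 (SE 1.35), 5.47 (SE 1.57), 3.898 (SE 1.03) and 3.37 (SE 1.21). No probe set was called at either time (0%); 3.66% at 100 min and 5.38% at 400 min had an unadjusted p under 0.05, among them Ccl12 at 100 min and all 4 genes at 400 min. With replicates 1 and 2 only, Ccl2 (3.55) and Ccl7 (4.46) were called at 400 min. The share of all probe sets called in that fit is not given, and nothing is read from these calls.

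The order of the group means of linear intensity was KO 400 min, KO 100 min, WT 100 min, WT 400 min, KO unstimulated and WT unstimulated for each of the 4 genes. Neighbours in that order did not overlap between KO 100 min and WT 100 min for all 4, between KO 400 min and KO 100 min for Ccl8 alone, and between KO unstimulated and WT unstimulated for Ccl2 alone. All other neighbours in the order overlapped.

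The replicate 3 arrays shaped much of the spread within groups, but not for every gene and group. Replicate 1 stood apart for Ccl12 in WT cells at 400 min (183 against 41.8 and 43.1). It did so for Ccl8 in unstimulated KO cells too (32.9 against 173 and 278). The replicate 3 array was the lowest for 4 of the 4 genes in KO cells at 100 min, at 19.2% to 77.7% of the mean of replicates 1 and 2, and in WT cells at 100 min, at 7.15% to 22.1%. It was the lowest for 3 of 4 in KO cells at 400 min, with Ccl8 at 197% the exception, for 2 of 4 in WT cells at 400 min and for 1 of 4 in unstimulated KO cells. Over the 17 arrays the log2 values of Ccl2 and Ccl7 had a Pearson correlation of 0.969, Ccl2 and Ccl12 of 0.942 and Ccl7 and Ccl12 of 0.925, and after subtracting group means these were 0.821, 0.732 and 0.444. Ccl8 correlated at 0.719 with Ccl2, 0.731 with Ccl7 and 0.748 with Ccl12 over the arrays, but at 0.205, 0.006 and 0.199 within groups. The arrays share group differences and the replicate 3 shift, so these values describe them and carry no test. How far a lower level on an array reflects fewer producing cells or less RNA per cell cannot be told apart in bulk RNA.

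The cluster's other protein-coding genes were called in no comparison. Ccl11, an eosinophil chemoattractant that lies between Ccl7 and Ccl12, averaged 91.0 ± 60.0 in unstimulated KO cells, 58.0 ± 25.3 at 100 min and 66.3 ± 62.1 at 400 min (SD, n = 3 each), and 67.8 ± 67.2 (SD, n = 2), 130 ± 26.9 and 152 ± 57.6 (SD, n = 3 each) in WT cells. Ccl1, beyond Ccl8 and known as a ligand of Ccr8, averaged 226 ± 35.2, 175 ± 168 and 178 ± 25.9 in KO and 148 ± 126, 192 ± 18.9 and 197 ± 49.7 in WT cells, in the same order of times and with the same n. Their arrays overlapped between unstimulated and stimulated KO cells. Neither was called in any of 11 comparisons: their log2 differences at 400 min were -0.52 (SE 0.78) for Ccl11 and -0.34 (SE 0.67) for Ccl1 in KO cells and 1.53 (SE 0.87) and 0.70 (SE 0.75) in WT cells.

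The list of other CC chemokines and the lists below were chosen with earlier results of these data known. The p-values of their genes in comparisons with KO arrays are descriptive and not independent tests. Among the other CC chemokines, Ccl1 and Ccl11 included, 10 of 16 had a probe set and 9 were tested. Ccl4, a chemokine made by macrophages and T cells, was the 1 called: in limma's test it rose in KO cells by 2.64 at 100 min (SE 0.32, adjusted p = 0.00193), and the difference at 400 min was 2.66 (adjusted p = 0.00109, same SE). KO was above WT by 2.497 at 100 min (adjusted p = 0.0109) and by 1.98 at 400 min (adjusted p = 0.0181). The calls against unstimulated KO cells were kept in all 27 alternative fits, and each of the calls against WT was lost without any of 3 of the 17 arrays. The list's median was 0.02 at 100 min and 0.57 at 400 min in KO cells, beside -0.04 for all probe sets tested at both times. In WT cells 0 of 9 were called, with medians of -0.06 and 0.01. Of the CXC and other chemokines 8 of 16 were tested, and Cxcl10, which draws activated T cells, was the 1 called, at 3.998 (adjusted p = 0.00169) after 100 min and 3.08 (adjusted p = 0.00362) after 400 min in KO cells, each with an SE of 0.46, and at 2.34 (SE 0.46, adjusted p = 0.0492) against WT at 400 min, a call lost without any of 11 of the 17 arrays. The medians of that list in KO cells were 0.42 and -0.02.

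Of 7 receptor genes with a probe set 6 were tested. Ccr1, a receptor for Ccl7, rose in limma's test in KO cells, by 2.46 (SE 0.48, adjusted p = 0.0357) after 100 min, and by 2.86 with the same SE after 400 min (adjusted p = 0.00808), and was the 1 receptor called. The list's medians in KO cells were -0.12 and 0.48. Its values were 327, 344 and 342 in unstimulated KO cells, 2667, 2259 and 1051 at 100 min and 2877, 2829 and 1799 at 400 min. In WT cells Ccr1 was at 168 and 168 unstimulated, 500, 422 and 1167 at 100 min and 483, 579 and 1550.1 at 400 min, with differences of 1.90 (adjusted p = 0.556) and 2.17 (adjusted p = 0.344). Both stimulated WT groups were above the unstimulated one without overlap, with replicate 3 their highest array, whereas replicate 3 was the lowest KO array at both times. The KO call at 100 min was lost without any of 9 of the 17 arrays, and that at 400 min was kept without each of them. The KO minus the WT response of Ccr1 was 0.56 at 100 min and 0.69 at 400 min (SE 0.72 each) and was not called. KO minus WT was not called for Ccr1 at any time either, so the calls in KO cells alone do not show a genotype difference.

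Ccr2, the receptor of Ccl2, Ccl7 and Ccl12, was read on every array and called in none of the 11 comparisons. Its values were 2899, 2400.5 and 415 in unstimulated KO cells, 2245, 1767 and 487 at 100 min and 1569, 1832 and 1636 at 400 min. In WT cells Ccr2 was at 3740 and 2427 unstimulated, 3711, 3193 and 412 at 100 min and 2255, 3153 and 1635 at 400 min. Its 3 lowest arrays were replicate 3 of unstimulated KO, KO 100 min and WT 100 min. On the last 2 of these, all 4 chemokine genes, Ccl8 included, were lowest in their group. Ccr3, Ackr2, Ccrl2 and Cx3cr1 were called in no comparison, with KO differences of 1.67 (SE 0.87), 0.07 (SE 0.73), 0.73 (SE 0.68) and -0.38 (SE 0.73) at 400 min, and Ackr1, an atypical receptor that binds chemokines without signalling, was too dim to be tested.

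**Figure D4:**
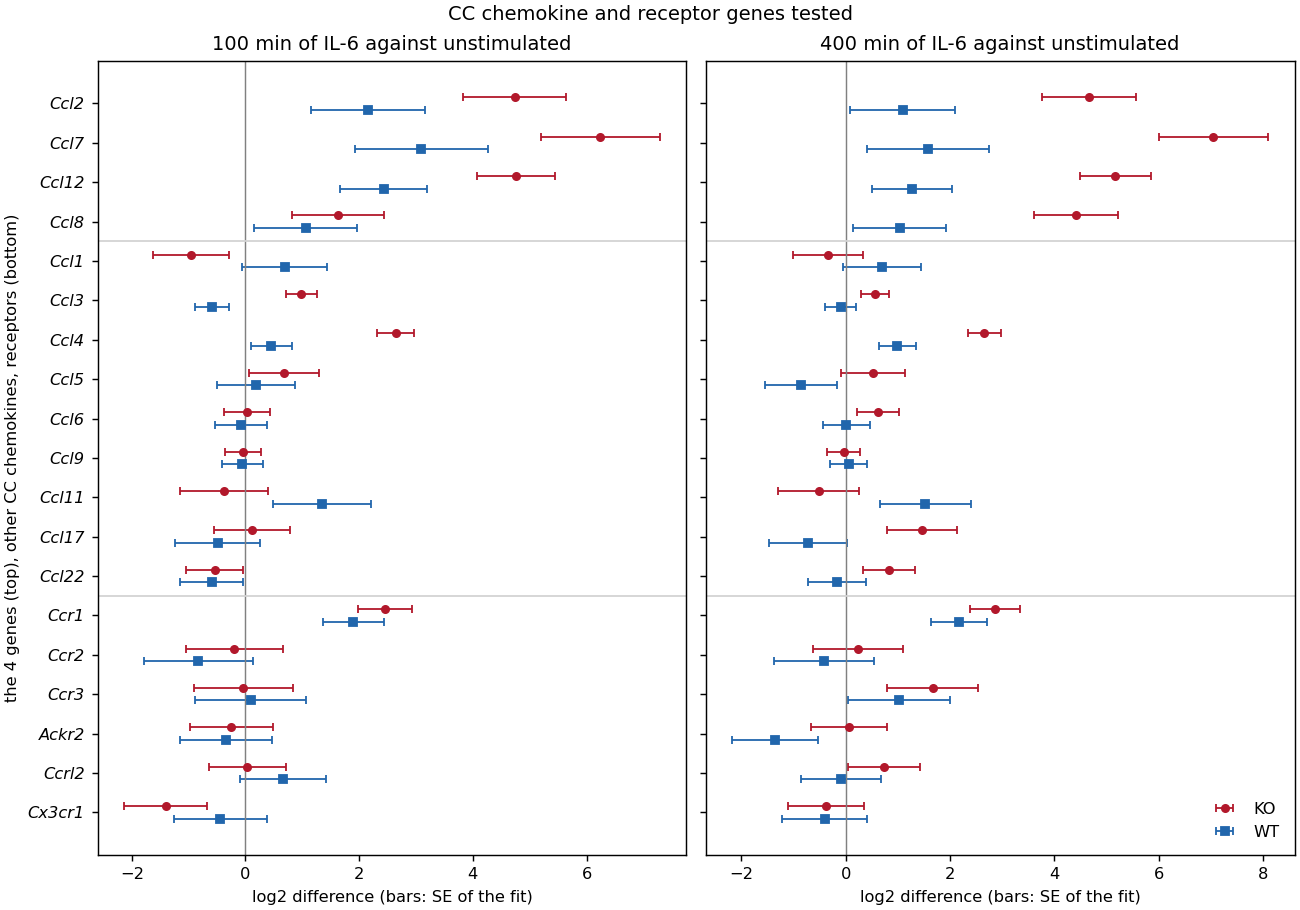
Log2 difference from unstimulated cells after 100 and 400 min of IL-6 for the 4 genes (top), the other CC chemokine genes tested (middle) and the receptor genes tested (bottom), in KO (circles) and WT cells (squares); bars are 1 SE of the fit. Among the middle and bottom groups Ccl4 (2.64 and 2.66) and Ccr1 (2.46 and 2.86) passed the threshold in KO cells, and none did in WT cells. The KO minus the WT response was called for neither gene, and for Ccr1 it was 0.56 at 100 min and 0.69 at 400 min (SE 0.72 each).

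The lists of pathways known to act on these genes are set beside the 0.577% of all probe sets called in KO cells at 100 min and the 1.82% called at 400 min. Of 20 tested JAK-STAT genes Irf1, an interferon regulatory factor, rose in KO cells by 2.63 after 100 min (adjusted p = 0.00326) and 2.67 after 400 min (adjusted p = 0.00198), each with an SE of 0.35, and Stat3 rose by 1.37 (SE 0.25, adjusted p = 0.0127) at 400 min. Against WT at 400 min Irf1 (2.15) and Socs1 (2.58), a feedback inhibitor related to Socs3, were called. The medians of the list in KO cells were 0.41 and 0.20. Of 17 NF-kappaB pathway genes 1 rose, the adaptor gene Myd88, by 2.16 (SE 0.31, adjusted p = 0.00347) at 400 min, and the list's median was -0.005 at 100 min and 0.04 at 400 min. Of 12 inflammatory cytokine and enzyme genes 1 rose, Il1b, by 2.81 (SE 0.64, adjusted p = 0.0419) at 400 min, with list medians of 0.45 and 0.54. Of 11 AP-1 and C/EBP genes 2 were called at 100 min and 3 at 400 min: Cebpa fell by 1.26 at 100 min and by 1.65 at 400 min, Fos fell by 2.10 at 400 min, and Cebpd (1.30 at 100 min) and Junb (1.49 at 400 min) rose, with list medians of 0.89 and -0.07. Zfp36, which destabilises mRNAs with AU-rich elements, rose by 2.03 and 1.94 at the 2 times and was the 1 of 6 tested genes of its list called, with list medians of 0.02 and 0.29. In WT cells no gene of any list was called. Left out one at a time, arrays ended the call of Irf1 against WT in 4 of 17 fits, Stat3 in 3, Socs1 in 7, Il1b in 11, Cebpa at 100 min in 6, Cebpd in 14, Fos in 7, Junb in 6 and Zfp36 at 100 min in 3, and none of them ended that of Irf1 in KO cells, Myd88, or Cebpa and Zfp36 at 400 min.

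The probe sets most like the mean of the 4 genes over the 17 arrays were those of Mcoln2, an endolysosomal cation channel (Pearson correlation 0.974), Gbp2, a guanylate-binding protein (0.961), Inpp5b, an inositol phosphatase (0.956), Irf1 (0.951), Ndrg1 (0.941, probe set 160464_s_at) and Ccl4 (0.928). Within groups these correlations were 0.842, 0.779, 0.915, 0.770, 0.899 and 0.600. Mcoln2 averaged 542 ± 48.7, 1919.9 ± 421 and 1982 ± 140.0 in KO cells unstimulated and at 100 and 400 min (SD, n = 3 each), and 484 ± 51.9 (SD, n = 2), 938 ± 306 and 782 ± 208 (SD, n = 3 each) in WT cells, with the WT mean highest at 100 min as for Ccl2, Ccl7 and Ccl12. Taken one by one, Ccl2 was most like Mcoln2 (0.945), Irf1 (0.924) and Ch25h (0.922), and Ccl7 most like Mcoln2 (0.957), Irf1 (0.956) and Bcl2l1 (0.949). Ccl12 was most like Gbp2 (0.956), Mcoln2 (0.949) and Selp (0.949). Ccl8 had other neighbours and lower values: Ifi35 at 0.871, Ndrg1 at 0.866 (probe set 96596_at) and Dab2 at 0.842. Dab2, an endocytic adaptor, averaged 1183 ± 371, 3173 ± 571 and 6664 ± 903 in KO cells (SD, n = 3 each), and 888 ± 106 (SD, n = 2), 1965 ± 132 and 2188 ± 235 (SD, n = 3 each) in WT cells, its KO mean higher at 400 than at 100 min as that of Ccl8 was.

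**Figure D5:**
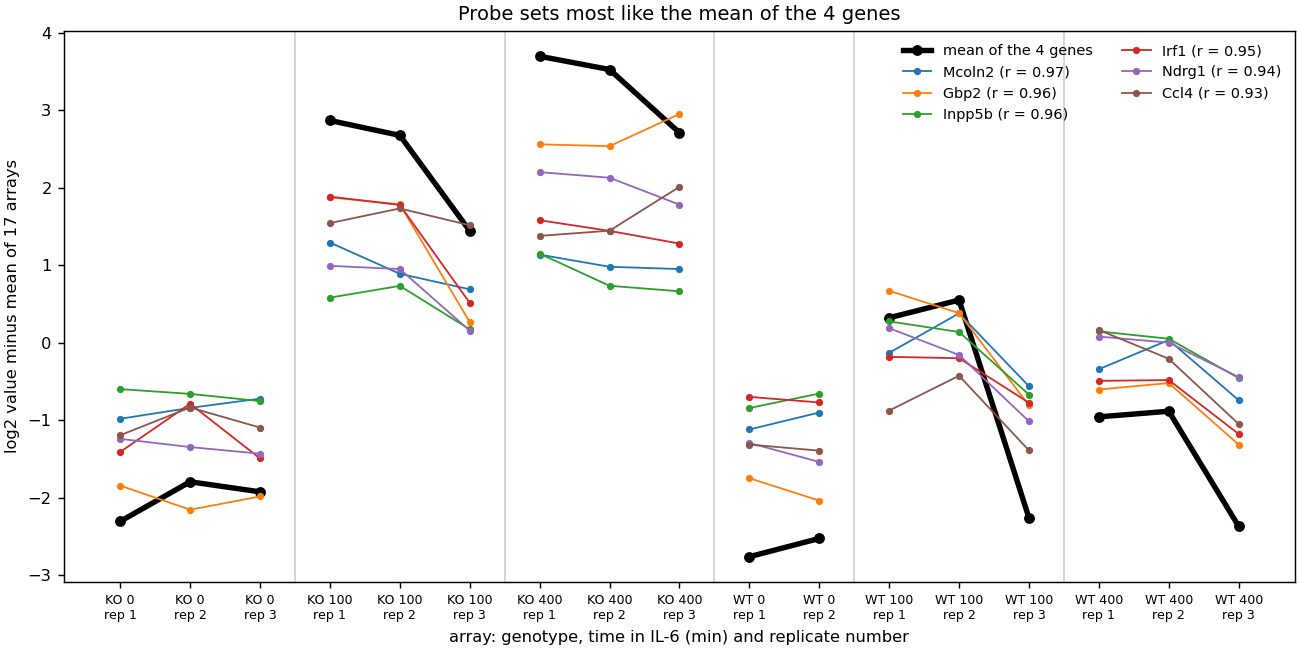
Log2 value minus its mean over the 17 arrays for the mean of the 4 genes (thick line) and the 6 probe sets most like it, by array; the legend gives Pearson's r over the 17 arrays. The 6 run from r = 0.93 for Ccl4 to 0.97 for Mcoln2, and the thick line is lower on the replicate 3 array than on replicates 1 and 2 in all 4 stimulated groups.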

How the data were processed

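The deposited table holds 1 linear intensity per probe set and array, made by software not given in the sources used here. With 2% of values trimmed at each end, the mean deposited intensity was 500.33 to 500.38 on every array, so the values had been scaled per array. Array medians differed by 0.40 on the log2 scale, so the intensities were quantile normalized, floored at their 10th percentile (22.0) and log2 transformed. Tested were probe sets that exceeded the 40th percentile of an array on 2 or more arrays (9871 of 12488; 66 controls left out), all 4 genes among them: Ccl2 was above it on 17 arrays, Ccl8 on 13, Ccl7 on 10 and Ccl12 on 9. A gene that passes only through the arrays where it is high had to differ between groups. This holds for Ccl7 and Ccl12, which no unstimulated array read above that percentile. limma 3.58.1 in R 4.3.3 fitted 1 mean per group over 17 arrays, with eBayes (prior degrees of freedom 2.6, residual 11) and Benjamini-Hochberg adjustment for 11 comparisons; called means an adjusted p under 0.05. The code was tested on simulated data. Levels are normalized intensities, given before the floor. Symbols come from the platform's annotation: 10855 probe sets have 1 symbol, 396 several and 1237 none. No deposited column was left unused. Precision is limited by the number of arrays.

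The 4 genes and all gene lists were chosen with earlier results of these data known. The p-values of list genes in comparisons with KO arrays, that of Fcgr1 included, are therefore descriptive. From each list every called gene was to be named, up to 4 per comparison, the receptors and cluster neighbours in any case, and for likeness the 6 probe sets closest to the mean of the 4 and the 3 closest to each. Each list gene entered with its brightest probe set. Alternatives for normalization, floor, filter, spread, replicate numbers and single arrays were run for the 4 genes, and, added after the values were seen, for the called list genes.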

Additional observations from a re-analysis of the deposited data

Results flagged for a closer look

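Ccl12 between 100 and 400 min of IL-6 stood out on the linear scale. Each of the 3 KO arrays at 400 min was above the mean intensity of the KO arrays at 100 min, and each of the 3 WT arrays at 400 min was below that of the WT arrays at 100 min. On the log2 scale this did not hold for every array, since WT 400 min replicate 1 lay above the mean of the WT arrays at 100 min. The log2 differences were 0.41 (SE 0.69) in KO cells, with -0.061 when KO 100 min replicate 3 was left out, and -1.16 (SE 0.69) in WT cells. The difference between these 2 changes was not tested.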

How the results depend on the processing

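Across 10 alternative settings and 17 fits that each left out 1 array, the number of the 4 genes called moved in 7 of 11 comparisons. The replicate block, replicate 3 as a batch term and replicates 1 and 2 only called 1, 1 and 2 genes in WT cells at 100 min against unstimulated, 1, 1 and 1 at 400 min, 2, 2 and 2 in KO against WT at 100 min and 1, 1 and 2 for the KO minus the WT response at 400 min, each 0 over all arrays with no block. The shares of all probe sets called under these settings are not given, so nothing is read from these counts. Deviations from the group means correlated at 0.10 to 0.236 among the 10 pairs of replicate 3 arrays, at -0.016 to 0.11 for number 1 and at -0.012 to 0.089 for number 2. Replicate 3 arrays thus deviated together, while numbers 1 and 2 were not taken as pairs. A fit of the compared groups alone called 1 in KO cells at 100 min and 0 in KO against WT at 400 min. Leaving out arrays singly gave 1 to 3 genes in KO cells at 100 min, 2 to 4 at 400 min and 0 to 4 in KO against WT at 400 min, and 0 in the others. The shares of all probe sets called in these fits are not given either, and nothing is read from their counts.

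Signs turned for 8 differences, none of them called. Ccl2 at 400 against 100 min in KO cells was 0.21 with replicates 1 and 2 only and -0.45 to 0.60 with arrays left out singly, and Ccl12 there was -0.061 to 0.67. Ccl8 at 400 against 100 min in WT cells was 0.025 without quantile normalization and -0.75 to 0.37 with arrays left out. Ccl8 in WT cells against unstimulated ran from -0.040 to 2.17 at 100 min and -0.064 to 2.14 at 400 min. Unstimulated KO minus WT for Ccl12 was -0.10 without quantile normalization, -0.054 with a common median and -0.27 with replicates 1 and 2 only, and -0.30 to 0.45 with arrays left out, and for Ccl8 -0.19 with replicates 1 and 2 only and -0.66 to 1.55. The KO minus the WT response of Ccl8 at 100 min was -0.53 to 1.67. The causes were not tested. Alternatives for the called list genes were chosen after seeing the data. The dim end of the arrays, where Ccl7 and Ccl12 sat before IL-6, limits their fold changes.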
